A study of Oryza sativa Japonica Group with 4 samples.

Results

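The SAPK genes of rice encode the osmotic stress/ABA-activated protein kinases, the rice members of the SnRK2 family. They were taken by locus identifier, SAPK1 to SAPK10, and all 10 were found among the 33744 genes of the deposited table, each under its SAPK name. RNA came from leaves of 14-day-old seedlings of japonica rice after 6 h of drought. The line OE13, labelled drought resistant, was compared with the line OE13-2KR/oswox13-1, labelled drought sensitive, with 2 RNA-seq libraries each. Both lines were made around OsWOX13, a homeobox transcription factor of the WUSCHEL-related kind, and the study asked how acetylation of this factor bears on drought resistance and nitrogen use. Going by its name, OE13-2KR/oswox13-1 differs in the 2KR form as well as in the oswox13-1 background, and these cannot be told apart. Every library was from drought-treated plants. No watered and no wild-type group was analysed here, so a value describes one line against the other and not a response to drought. The promoter of either transgene, the number of independent lines and the pooling of plants are not stated in the labels.

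SnRK2 kinases are plant-specific serine/threonine kinases that are switched on by phosphorylation within minutes of osmotic stress. In the core abscisic acid (ABA) pathway, ABA binds a PYL/RCAR receptor, the receptor holds back clade A protein phosphatases 2C (PP2C), and the SnRK2 kinase, no longer dephosphorylated, acts on ABF/ABI5-type bZIP transcription factors and on anion channels such as SLAC1. In rice all SAPK kinases respond to hyperosmotic stress. Those of subclass III (SAPK8, SAPK9 and SAPK10) are also activated by ABA, subclass I holds SAPK4 to SAPK7, and subclass II holds SAPK1 to SAPK3. Since these kinases are controlled mainly at the protein level, a transcript level is not a measure of their activity.

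FPKM (by its name, fragments scaled to gene length and to the library's total) summed to between 931335 and 941593 per library. How the values were in fact scaled is not stated, and the number of reads is unknown. Two-sided limma tests were run on log2(FPKM + 1) over the 20174 genes whose FPKM averaged 1 or more, and every fold change below is OE13-2KR/oswox13-1 minus OE13 on that scale. Of all genes tested 1, which is no SAPK gene, passed an adjusted p of 0.05 (limma, Benjamini-Hochberg), which is 0.00496% of those tested. Taking an unadjusted p under 0.05, OE13-2KR/oswox13-1 had 1613 genes at a higher and 2415 at a lower level, so 40.04% of these calls were higher. That share was 49.5% after rescaling by median ratios and 52.8% after quantile normalisation, under which the median over all genes went from -0.08 to 0.03 (log2). The locus taken to be OsWOX13, Os01g0818400, is listed as OsWOX8, and its identity rests on general knowledge of the locus. It stood at 27.1 and 49.9 FPKM in OE13-2KR/oswox13-1, against 22.02 and 75.6 in OE13, so the groups overlapped. A value per gene does not distinguish the 2KR form from the unchanged one, so it cannot check the identity of the lines. The leaf label was checked with the chlorophyll-binding protein genes CAB1R, at 726 and 314 FPKM against 733 and 352, and CAB2R, at 1022 and 387 against 2018 and 882. The root nitrate transporter gene NRT2.1 stood at 0.212 or less. The silicon transporter gene LSI1, known for its expression in roots, was at 18.7 to 27.1. The RbcS gene that the marker rule picked was listed at 0 in all libraries, and others were looked up afterwards. RbcS3 stood at 5479 and 3124 against 7531 and 4317 FPKM. The gene listed as RBCS (Os12g0274700) stood at 5666 and 3175 against 11373 and 5799, without overlap and with a limma adjusted p of 0.329. Genes on the other strand cover 68.2% of RbcS3 and 57.0% of this RBCS gene, and RbcS1 was low in both lines, at 2.12 to 3.22. Whether leaf make-up bears on the SAPK values was not tested.

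Of the 10 SAPK genes, SAPK1 and SAPK6 had 2.03 and 1.73 times the mean transcript level in OE13-2KR/oswox13-1, SAPK4 had a 34.5% lower one, and the most abundant member, SAPK2, stood at nearly the same level in all libraries. None of these differences passed the test adjusted over all genes. At an unadjusted p under 0.05, 2 of 10 members were higher and 0 lower, where all genes tested gave 20% in either direction, 8% higher and 12% lower. The lines' libraries did not overlap for 5 of 10 members, against 56.2% of all genes tested, with 3 members higher and 2 lower (23.4% and 32.8% of all genes). Both shares lay near those of all genes, so they are not a result about the family. Without OE13-2KR/oswox13-1 replicate 2 the count was 4 of 10, with SAPK4 and SAPK7 added as lower, where all genes gave 12.1%. The log2 fold change was above 0 for 5 members and below 0 for 5, and its median was -0.01 (-0.08 over all genes). In a bulk sample, fewer cells of a type and less RNA per cell cannot be told apart.

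The members spanned a wide range of abundance. SAPK2 led with a mean of 316.5 FPKM over the 4 libraries, above 97.9% of the genes tested. SAPK4 followed with 172 FPKM and SAPK1 with 90.5. Then came SAPK3 with 79.3, SAPK7 with 75.6, SAPK8 with 73.7, SAPK9 with 65.7 and SAPK6 with 52.1 FPKM. The lowest were SAPK5 with 16.5 and SAPK10 with 11.6 FPKM, the latter above 51.2% of the genes tested. All 10 passed the filter on low values, none of them through the level of a single line. Ranges over the 4 libraries separated SAPK2 from SAPK4, SAPK6 from SAPK5 and SAPK5 from SAPK10. Every other pair of neighbours in this order had overlapping ranges, although SAPK4 exceeded SAPK1 in 4 of 4 libraries. None of the 10 loci is overlapped by another gene of the deposited table on either strand, so their values are not subject to reads shared with an antisense partner listed there. How reads that match several similar SAPK genes were counted is not stated.

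**Figure D1:**
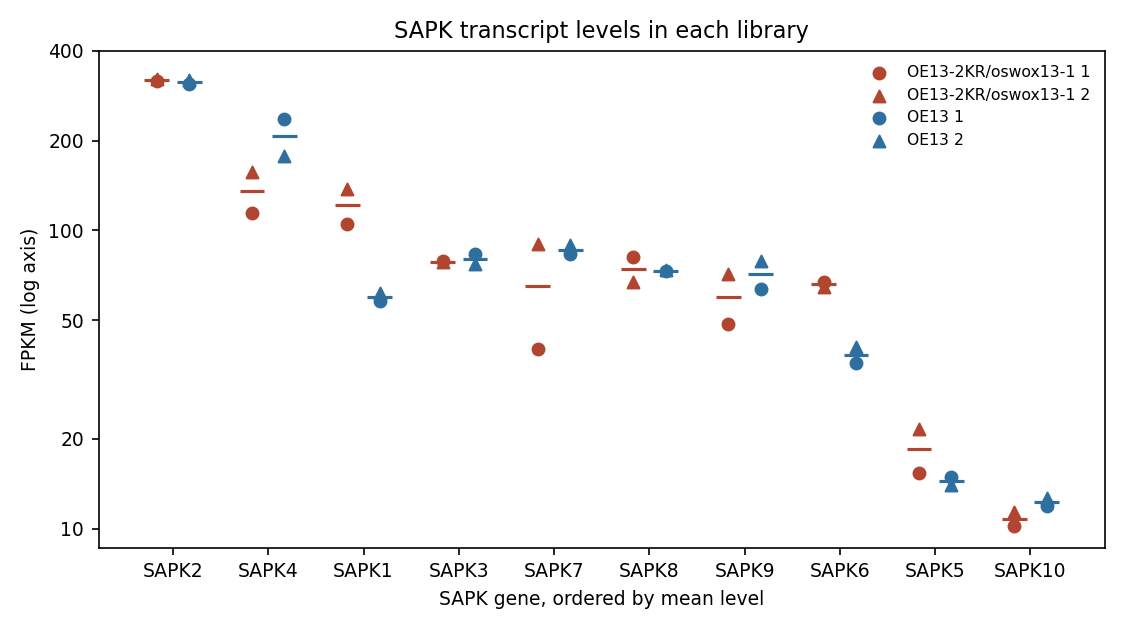
FPKM (log axis) of each SAPK gene in the 4 libraries, ordered by mean level, with circles for replicate 1, triangles for replicate 2 and bars for the mean of each line. SAPK1 and SAPK6 lie higher in both OE13-2KR/oswox13-1 libraries, SAPK4 lies lower, and SAPK2 stays between 310 and 321 FPKM.

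Subclass II held the most abundant member and the one that differed most. SAPK1 (Os03g0390200, chromosome 3, 15628109 to 15632425, minus strand), which with SAPK2 is known to contribute to salt tolerance in rice, stood at 105 and 137 FPKM in OE13-2KR/oswox13-1, against 57.96 and 61.5 in OE13. Both libraries of the sensitive line were high and the groups did not overlap. The means were 121 ± 22.7 and 59.7 ± 2.48 FPKM (SD, n = 2 each), with a log2 fold change of 1.00 (SE 0.20, 95% interval 0.49 to 1.51). The unadjusted p was 0.00372 and the adjusted p 0.187 (limma), and 7.69% of all genes tested had a fold change at least as large in either direction.

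SAPK2 (Os07g0622000, chromosome 7, 25717837 to 25722009, plus strand), a kinase gene needed for ABA responses and drought tolerance in rice, was even across libraries. It stood at 316 and 321 FPKM in OE13-2KR/oswox13-1, against 310 and 319.6 in OE13. The groups overlapped, and the log2 fold change of 0.02 had a 95% interval of -0.42 to 0.46 (limma, adjusted p = 0.964). The interval is wider than the libraries' own spread because limma draws each gene's variance towards that of genes of like level. SAPK3 (Os10g0564500, chromosome 10, 22294896 to 22297645, minus strand) behaved alike in value, at 78.8 and 78.01 against 83.3 and 76.996 FPKM. Its groups overlapped as well, with a log2 fold change of -0.03 and an interval of -0.45 to 0.39. The signs of the SAPK2 and SAPK3 fold changes turned with the scaling of the libraries, at -0.11 for SAPK2 after quantile normalisation and 0.05 for SAPK3 after rescaling by median ratios.

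Subclass I was divided in direction. SAPK6 (Os02g0551100, chromosome 2, 20746335 to 20751320, minus strand), known to phosphorylate an ABA-related bZIP factor, stood at 67.3 and 64.7 FPKM in OE13-2KR/oswox13-1, against 35.9 and 40.7 in OE13. The 2 libraries of each line lay close together and the groups did not overlap. Means were 66.01 ± 1.79 and 38.3 ± 3.39 FPKM (SD, n = 2 each), and the log2 fold change was 0.77 (SE 0.17, 95% interval 0.34 to 1.21). The unadjusted p was 0.00579 and the adjusted p 0.194 (limma). For SAPK1 and SAPK6 the unadjusted p stayed under 0.05 in all 11 alternative fits, and in none did the adjusted p pass.

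SAPK4 (Os01g0869900, chromosome 1, 37710241 to 37714835, plus strand), tied to acclimation to salt in rice, went the other way. It stood at 114 and 157 FPKM in OE13-2KR/oswox13-1, against 237 and 178 in OE13. Both libraries of the sensitive line were lower, but the gap between 157 and 178 FPKM was smaller than the difference between the libraries within either line. The means were 136 ± 30.7 and 207 ± 41.8 FPKM (SD, n = 2 each). Its log2 fold change of -0.61 (SE 0.25, 95% interval -1.25 to 0.03) had an adjusted p of 0.263 (limma), and was -0.38 without OE13-2KR/oswox13-1 replicate 1.

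SAPK7 (Os04g0432000, chromosome 4, 21414495 to 21419953, plus strand) was set apart by a single library. It stood at 40.1 and 90.3 FPKM in OE13-2KR/oswox13-1, against 82.99 and 89.2 in OE13. Replicate 1 of the sensitive line was low and the other 3 libraries lay close together, so the groups overlapped. The log2 fold change of -0.51 (SE 0.39, limma adjusted p = 0.488) was 0.07 without that library and -1.08 without replicate 2 of the same line. SAPK5 (Os04g0691100, chromosome 4, 35344338 to 35346212, plus strand), a low member, stood at 15.4 and 21.6 against 14.9 and 14.02 FPKM. Both libraries of the sensitive line were higher, yet by only 15.4 against 14.9 FPKM at the nearest, and the log2 fold change was 0.31 (95% interval -0.27 to 0.90, limma adjusted p = 0.471). It was 0.55 without replicate 1 of the sensitive line and 0.08 without its replicate 2.

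The ABA-activated subclass III showed small differences. SAPK8 (Os03g0764800, chromosome 3, 31652794 to 31658094, plus strand), known to phosphorylate the guard cell channel SLAC1, stood at 81.4 and 66.96 FPKM in OE13-2KR/oswox13-1, against 72.9 and 73.7 in OE13. The OE13 values lay between those of the other line. Its log2 fold change was 0.01 (95% interval -0.46 to 0.47), and it turned to -0.00599 after quantile normalisation and to -0.13 without OE13-2KR/oswox13-1 replicate 1, while it was 0.15 without replicate 2 of that line. SAPK9 (Os12g0586100, chromosome 12, 24459198 to 24462001, minus strand), a kinase gene that supports drought tolerance in rice when raised, stood at 48.6 and 71.3 against 63.7 and 79.1 FPKM. The groups overlapped, and the log2 fold change was -0.26 (95% interval -0.90 to 0.37). It was 0.00765 without OE13-2KR/oswox13-1 replicate 1, -0.54 without replicate 2 of that line, -0.42 without OE13 replicate 1 and -0.11 without OE13 replicate 2. SAPK10 (Os03g0610900, chromosome 3, 23068746 to 23071156, minus strand), known to phosphorylate the factor OsbZIP72, was the least abundant, at 10.2 and 11.4 against 11.9 and 12.7 FPKM. Both libraries of the sensitive line were slightly lower, with a log2 fold change of -0.17 (95% interval -0.66 to 0.31) that was -0.10 without OE13-2KR/oswox13-1 replicate 1. The adjusted p of the 3 genes lay between 0.570 and 0.980 (limma). The intervals of SAPK9 and SAPK10 include a difference as large as that of SAPK4, and none of the 3 shows that the lines had a like level.

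**Figure D2:**
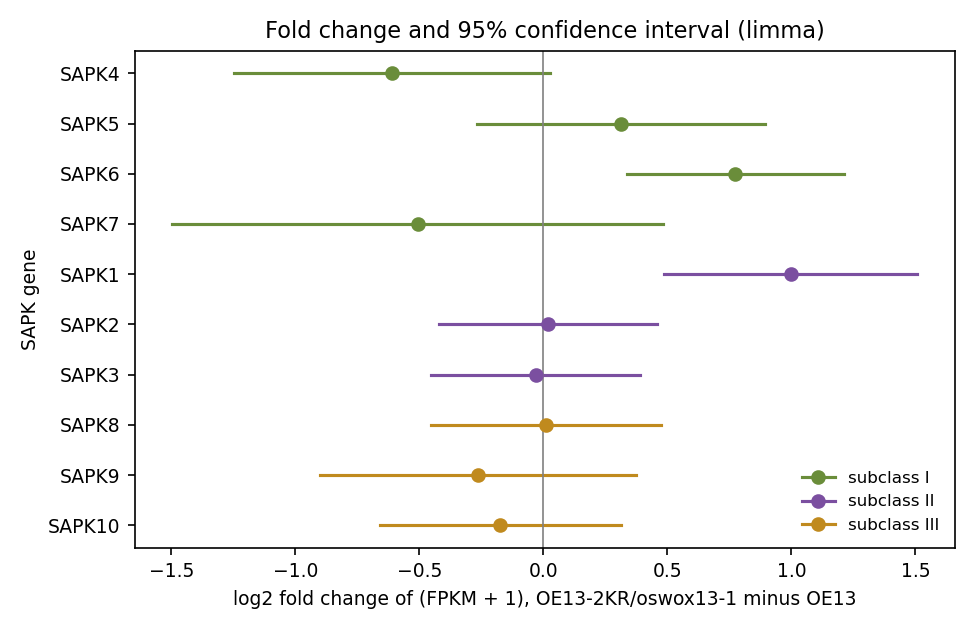
Log2 fold change of each SAPK gene (point) with limma's 95% confidence interval (line), coloured by subclass, where positive values mean a higher level in OE13-2KR/oswox13-1. The intervals of SAPK1 (0.49 to 1.51) and SAPK6 (0.34 to 1.21) lie above 0 and those of the other 8 genes include it.

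The summed level of the family overlapped between the lines. The 10 genes together gave 877 and 1020 FPKM in the sensitive line against 970 and 945 in OE13, so the OE13 sums lay between those of the other line. Subclass II, where only SAPK1 separated the lines, summed to 499.8 and 536 FPKM in the sensitive line against 451 and 458 in OE13, without overlap. Its share of the family was 57.0% and 52.6% against 46.5% and 48.5%. Subclass I summed to 237 and 334 FPKM in the sensitive line against 371 and 322 in OE13, so its sums overlapped. Its share was 27.0% and 32.8% against 38.2% and 34.03%, without overlap, but a share also falls when other members rise. Subclass III held between 14.7% and 17.5% in every library and overlapped. Of single genes tested, 56.2% did not overlap between the lines. An exact permutation test on 2 against 2 libraries cannot go below a two-sided p of 0.333, and no p is given for sums over the members.

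**Figure D3:**
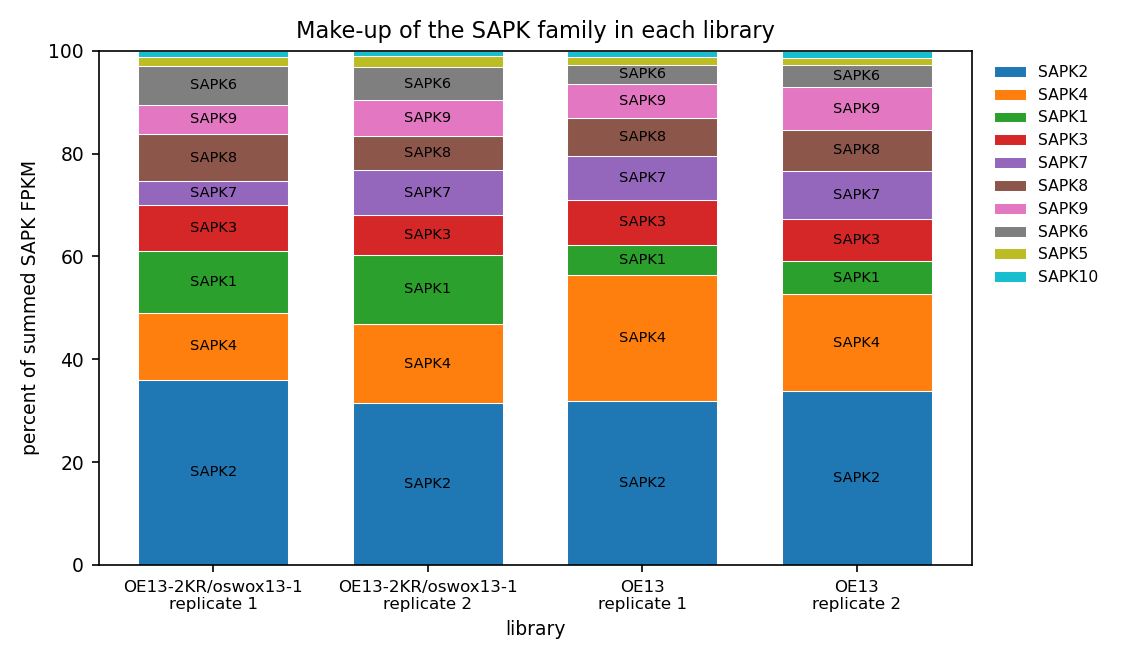
Share of the summed SAPK FPKM that each gene takes, in percent, for each of the 4 libraries, stacked from the most abundant gene at the bottom. SAPK1 takes 11.99% and 13.5% in OE13-2KR/oswox13-1, against 5.97% and 6.505% in OE13, while SAPK4 takes 13.0% and 15.4% against 24.4% and 18.8%.

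Ratios between members within a library do not depend on how libraries are scaled. For each FPKM of SAPK2 there were 0.333 and 0.428 of SAPK1 in the sensitive line, against 0.187 and 0.192 in OE13. SAPK6 stood at 0.213 and 0.202 of the SAPK2 level against 0.116 and 0.127, and SAPK4 at 0.361 and 0.491 against 0.765 and 0.556. All these ratios separated the lines. SAPK1 and SAPK4 were close to each other in the sensitive line, at a SAPK1 to SAPK4 ratio of 0.922 and 0.872, whereas SAPK4 was well above SAPK1 in OE13, at 0.245 and 0.346. By contrast the ratio of SAPK1 to SAPK6, at 1.56 and 2.12 against 1.62 and 1.51, overlapped between lines. Of the 45 pairs of members, 27 had ratios that did not overlap. The pairs share members, so these ratios are not independent of each other. No like share was computed for ratios of other genes, and the 56.2% given for all genes tested is for single genes. The count is therefore not a result about the family. The pairs above were named after their values were seen.

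The genes most like SAPK1 over the 4 libraries, by Euclidean distance between centred log2(FPKM + 1) profiles, were Os12g0270900 (a sulfotransferase family gene, distance 0.0644), Os11g0106400 (similar to a ubiquitin-activating enzyme, 0.0766) and CDPK9 (Os03g0688300, a calcium-dependent kinase gene, 0.0833). CDPK9 stood at 70.2 and 94.3 FPKM in OE13-2KR/oswox13-1, against 40.6 and 39.8 in OE13. Genes on the other strand cover 89.7% of CDPK9 and 90.6% of Os11g0106400, and without strand such reads cannot be told apart. Those most like SAPK2 were Os03g0448700, Os03g0395300 and the gene listed as R2R3-MYB (Os07g0688200), at distances of 0.00412, 0.0191 and 0.0225. With 4 libraries likeness is easily met: 61 genes lay within 0.2 of SAPK1 and 1716 within 0.2 of SAPK2.

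Upstream of the kinases, the ABA receptor and phosphatase genes did not pass the adjusted test either. Of 10 PYL/RCAR receptor genes 5 were tested, all with a log2 fold change below 0, as had 11462 of the 20174 genes tested. The value nearest to 0 was -0.00562, for OsPYL/RCAR5 (Os05g0213500). The median of the 5 was -0.34 (-0.08 over all genes). Of the 5, 0 stood at an unadjusted p under 0.05 (limma), against 20% of all genes tested. The other 5 receptor genes stayed under a mean of 1 FPKM. The receptor gene OsPYL/RCAR3 (Os02g0255500) stood at 70.9 and 34.6 FPKM in OE13-2KR/oswox13-1, against 69.95 and 80.5 in OE13. Its values overlapped, as did those of OsPYL/RCAR6 (Os05g0473000), at 7.07 and 0.721 against 3.47 and 12.1. OsPYL/RCAR10 (Os10g0573400) stood at 6.09 and 5.40 against 6.90 and 7.33, without overlap. Without OE13-2KR/oswox13-1 replicate 1, 3 of the 5 receptor genes were lower at an unadjusted p under 0.05, in a fit where 3392 of 20236 genes were lower at that threshold.

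All 10 clade A PP2C genes, whose products dephosphorylate SnRK2 kinases, were tested. The log2 fold change was above 0 for 8 of them, and for 8712 of the 20174 genes tested. The median of the 10 was 0.19. At an unadjusted p under 0.05 (limma) 2 of 10 were higher, where all genes tested gave 20% in either direction. OsPP2C51 (Os05g0572700) stood at 3.85 and 9.10 FPKM against 2.205 and 2.102 (log2 fold change 1.15, limma adjusted p = 0.218), and genes on the other strand cover 70.9% of it. OsPP2C50 (Os05g0537400) stood at 87.7 and 124 against 71.5 and 58.5 (0.68, limma adjusted p = 0.225). The lines did not overlap for these genes, but they did for OsABIL2 (Os05g0592800), at 32.8 and 46.5 against 35.1 and 28.6 FPKM. The calls of higher phosphatase genes did not hold without either OE13 library, nor without OE13-2KR/oswox13-1 replicate 2. In each of these fits fewer of all genes tested stood at that threshold as well.

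Downstream, the ABF/ABI5-type bZIP list held the largest fold change among the tested ABA pathway genes. OsABI5-1 (Os01g0859300), a bZIP factor gene of ABA and stress signalling, stood at 100 and 72.5 FPKM in OE13-2KR/oswox13-1, against 19.2 and 30.95 in OE13. Both libraries of the sensitive line were high, and the log2 fold change came to 1.77 (SE 0.30), with an adjusted p of 0.187 (limma). OsbZIP40 (Os05g0437700) went the other way without overlap, at 8.58 and 5.30 against 9.99 and 14.6 FPKM (-0.75, limma adjusted p = 0.259). BZIP23 (Os02g0766700), a positive regulator of ABA responses in rice, stood at 117 and 160.0 against 120 and 115 and overlapped. Of 8 listed bZIP genes 7 were tested, with a median of 0.18. At an unadjusted p under 0.05 (limma) 1 of these was higher, where all genes tested gave 20% in either direction and 8% higher. The anion channel gene SLAC1 (Os04g0574700), by which guard cells close stomata, stood at 10.1 and 8.61 against 6.34 and 5.36 FPKM. Its groups did not overlap (log2 fold change 0.60, limma adjusted p = 0.230). Of the 4 tested genes in the list for its family, it was the 1 at an unadjusted p under 0.05, against the same 20% of all genes. That list was made by words, and OsATX1 (Os02g0530100) entered only by its description as similar to a C4-dicarboxylate transporter. Its name is not that of a SLAC1 channel, though it counts among the 4 tested. OsATX1 stood at 24.9 and 16.2 against 35.3 and 25.4, and OsSLAC7 (Os01g0385400) at 1.22 and 5.25 against 1.87 and 2.27.

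**Figure D4:**
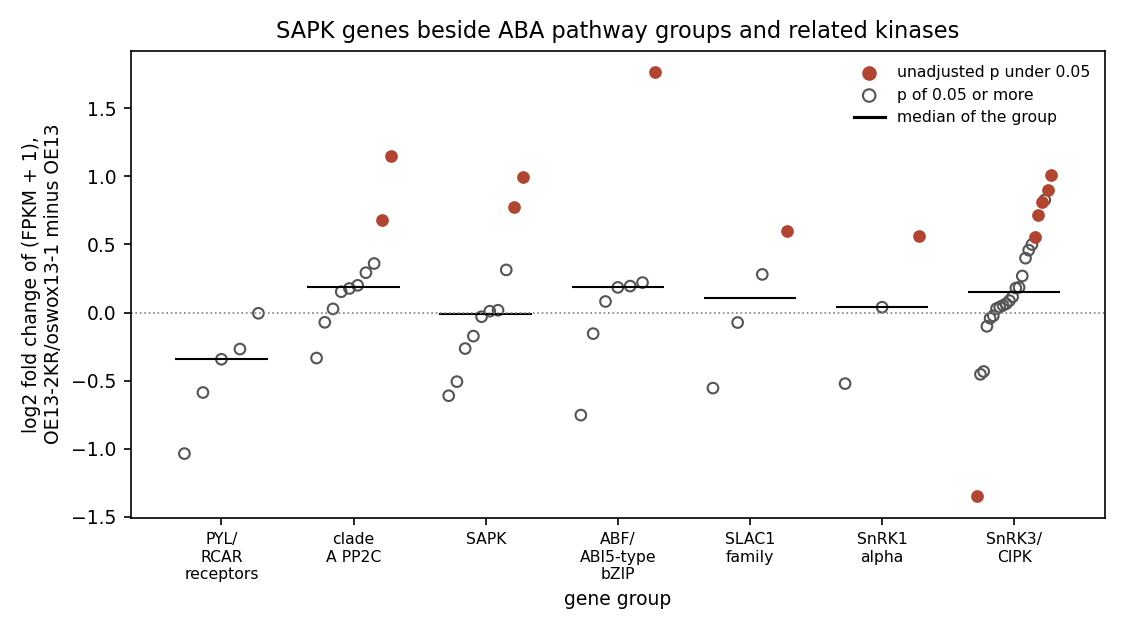
Log2 fold change of every tested gene in the ABA core pathway groups, the SAPK genes and the related SnRK1 and SnRK3/CIPK kinases, with filled points at an unadjusted p under 0.05 and a bar at each group's median. The SAPK median of -0.01 lies between the receptor median of -0.34 and the phosphatase median of 0.19.

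The SnRK1 and SnRK3 families are the nearest relatives of the SnRK2 kinases. Of the SnRK1 alpha subunit genes, whose kinases respond to energy supply, OSK3 (Os03g0289100) stood at 13.2 and 13.4 FPKM in OE13-2KR/oswox13-1, against 8.58 and 8.79 in OE13 (log2 fold change 0.56, limma adjusted p = 0.217). SNRK1A (Os05g0530500) at 36.0 and 44.6 against 40.1 and 37.8, and OSK4 (Os08g0484600) at 83.6 and 62.9 against 77.7 and 141, overlapped between lines. Genes on the other strand cover 60.4% or more of each of these 3. All genes tested gave 20% at an unadjusted p under 0.05 (limma) in either direction. The 1 of 3 at an unadjusted p under 0.05, OSK3, stood there in none of the 4 fits on 3 libraries. Without OE13 replicate 1 it was OSK4 that did, as lower. Of 32 loci listed as SnRK3/CIPK, a family of kinases that act with calcineurin B-like calcium sensors, 24 were tested. They include both loci listed as OsCIPK33, of which Os11g0134232 is non-coding, so that name is counted more than once. An unadjusted p under 0.05 was reached by 5 with a higher and 1 with a lower level, against 20% of all genes tested (8% higher and 12% lower), and the median was 0.15.

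The higher SnRK3/CIPK genes were OsCIPK09, OsCIPK01, OsCIPK29 and both loci listed as OsCIPK33 (Os11g0134300 and the non-coding Os11g0134232). OsCIPK09 (Os03g0126800) stood at 100 and 126 FPKM against 60.4 and 50.6, and OsCIPK01 (Os01g0292200) at 326 and 428 against 260 and 199. Genes on the other strand cover all of OsCIPK09 and 79.97% of OsCIPK01. The lower gene, OsCIPK10 (Os03g0339900), stood at 103 and 68.4 against 175 and 266. All of these groups were separate between lines, and the adjusted p lay at 0.187 for OsCIPK09, 0.218 for OsCIPK01 and 0.194 for OsCIPK10 (limma). The count of 6 fell when OE13-2KR/oswox13-1 replicate 2 or OE13 replicate 2 was left out, as did the count over all genes tested.

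In the authors' deposited table of 1207 genes marked up, beside 33744 genes with FPKM values, 0 of the 10 SAPK genes were found. Of these genes 1135 carry exactly 1 RAP identifier, 929 of those were tested here, and 927 of them were higher in OE13 by FPKM, so marked up means higher in OE13. SAPK4, the member with the most negative fold change, was thus not found there, although genes listed without a RAP identifier could not be looked up. SAPK1 and SAPK6 were higher in the sensitive line, so their absence from a list of genes higher in OE13 carries no information. The list of genes marked down has no RAP identifiers and was not searched. Whether the authors called any member higher in the sensitive line was therefore not tested.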

How the data were processed

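The authors deposited a table of FPKM with 1 column per library, per the file headers. No source used here says which tool made them. As tools, the submitters' processing notes list HISAT2 (2.2.1), DESeq2 (1.38.3) and featureCounts (2.0.0), and as genome IRGSP 1.0, without saying what each did. Coordinates are those of the deposited table. Low FPKM values showed no whole-read steps, so depth and counting error are unknown. A deposited list of genes marked up gives a log2 fold change, a p-value and an adjusted p-value per gene, per the file headers, and was used only to look up genes. The list of genes marked down, without RAP identifiers, was left out, as were 9 unlabelled value columns of a further sheet and 2 unlabelled columns with stray cells.

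Columns were matched to samples by library name. With R 4.3.3, limma 3.58.1 (trended prior) was fitted to log2(FPKM + 1) for genes averaging 1 FPKM or more, with Benjamini-Hochberg adjustment over all of them. The fit was checked on simulated data. Residual degrees of freedom numbered 2, to which the prior added 3.30. Nothing says that libraries of a line came from separate plants, so the spread behind the p-values is that between libraries and may be technical.

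Members and lists were chosen with earlier results of these data known. Named genes were all members; from each list the 3 with the smallest p and all at an unadjusted p under 0.05; and the 3 most alike in profile to the member with the smallest p and to the most abundant member. From the lists made by words, laccase genes and the sensor gene CBL1 were dropped as false matches. Alternatives were another pseudocount, other filters, other scalings, a replicate block, an untrended prior and leaving out each library.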

Additional observations from a re-analysis of the deposited data

How the results depend on the processing

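The directions of SAPK1, SAPK4, SAPK5, SAPK6 and SAPK10 held in all 11 alternatives, with log2 fold changes of 0.81 to 1.19, -0.84 to -0.38, 0.08 to 0.55, 0.69 to 0.86 and -0.24 to -0.03. No SAPK gene passed an adjusted p of 0.05 in any, and the lowest was 0.094 for SAPK1. Directions turned for SAPK2 (-0.11 with quantile normalisation), SAPK3 (0.0512 with median ratio scaling) and SAPK8 (-0.00599 with quantile normalisation). Among fits without 1 library, SAPK2 lay between -0.00569 and 0.0391, SAPK3 between -0.0870 and 0.0256, SAPK7 between -1.08 and 0.0687, SAPK8 between -0.13 and 0.15 and SAPK9 between -0.54 and 0.00765; the cause was not tested. The SAPK median was 0.0714 with median ratio scaling, which by construction shifts all genes of a library together.

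The SAPK genes at an unadjusted p under 0.05 numbered 2 to 4 without 1 library. They were 4 without OE13-2KR/oswox13-1 replicate 2, when SAPK4 and SAPK7 joined as lower. All genes at that threshold numbered 4028, and 1838 to 4971 without 1 library. The 1 gene at an adjusted p under 0.05 became 0 without a filter on low values, 0 with the replicate block and 2 with quantile normalisation, and 0 without any 1 library. With no filter on low values the counts at an unadjusted p under 0.05 were 2 receptor, 1 phosphatase and 2 SLAC1 family genes. These were of 10, 10 and 6 tested, where 14.7% of all genes stood at that threshold. That fit also takes in receptor and SLAC1 family genes with a mean under 1 FPKM, and the cause of the changes was not tested. Without 1 library the counts were 0 to 3 for receptors, 0 to 3 for phosphatases, 1 to 2 for bZIP, 0 to 2 for the SLAC1 family, 0 to 1 for SnRK1 and 2 to 8 for SnRK3/CIPK.

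Taken over all genes, same-numbered libraries did not deviate together (r = -0.09), so the numbers were not taken as pairs. The leaf marker genes CAB1R, CAB2R, RbcS3 and RBCS (Os12g0274700) were nevertheless lower in replicate 2 than in replicate 1 of both lines. RbcS1 was lower in replicate 2 of the sensitive line only. Whether same-numbered libraries shared a condition was not tested. With the replicate block 3361 genes and 2 SAPK genes stood at an unadjusted p under 0.05, SAPK1 with an adjusted p of 0.287. With 2 libraries per line and unknown depth, small differences could not be resolved in the lower members or in the more abundant ones. The SE of the log2 fold change was 0.19 for SAPK10, the least abundant, 0.17 for SAPK2, the most abundant, and 0.39 for SAPK7.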
